A study of Mus musculus with 8 samples.

Results

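The accessibility of 9 neuropeptide genes (Npy, Gal, Adcyap1, Vgf, Tac1, Cartpt, Penk, Sst and Crh) and of Crhbp, whose product binds the peptide made from Crh, was examined in mouse retinal ganglion cells (RGCs), the neurons whose axons form the optic nerve. The members are these 10 genes of 21900 protein-coding genes. They were chosen by name, and every peak that overlapped a gene or lay within 10 kb of it was counted as belonging to it. Overlapping peaks of the 8 samples (1 bp or more) were joined into regions, which gave 35 regions around the 10 genes of 189914 in the series. Regions are named by their gene and a number that runs upward from the lowest position in the mouse build GRCm38.

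Neuropeptides are cut from longer precursor proteins, stored in dense core vesicles and released by strong or repeated firing to act on receptors of the G protein-coupled kind. In the retina many of them, among them Npy, Sst, Tac1 and Penk, are best known from amacrine cells, and several are switched on in neurons whose axons were injured. Ezh2 is the catalytic subunit of a complex that methylates lysine 27 of histone H3, a mark of silenced genes.

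The assay was ATAC-seq: a transposase cuts open DNA and adds sequencing adapters to it, so that a peak marks a stretch of accessible chromatin. C57BL/6J mice received the viral vector AAV2 in the vitreous body of the eye, carrying GFP (the control, 3 samples), Ezh2 (3 samples) or Ezh2-Y726D (2 samples), a form of Ezh2 with a single exchanged amino acid and no methyltransferase activity. All groups, controls included, had the optic nerve crushed 2 weeks after the virus, and cells were sorted 3 days after the crush by an antibody against the surface protein Thy1, with 50000 cells per library. The study used adult mice of both sexes, and the labels do not say how many retinas went into a sample. The vector reaches other cells of the eye as well as RGCs, the sort did not require the transgene, and mouse T cells carry Thy1 too.

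Each sample is 1 list of peaks, and the lists held 112939 to 135895 peaks. They give no read numbers, so depth is unknown, and an index of it (the local background pileup worked out from the steps of low folds) ran from 2.39 to 3.74 reads. Peaks overlapping Ezh2 itself numbered 4, 5 and 6 in the GFP lists, 9, 10 and 9 in the Ezh2 lists, and 4 and 4 in the lists labelled Ezh2-Y726D. The Ezh2 lists stood above the controls at this gene and the Ezh2-Y726D lists did not, so the label of the latter could not be checked this way, and Ezh2-Y726D below means the lists so labelled. As a check of the cells, 10 marker genes per cell type were searched for a peak within 1 kb of a gene end. RGC markers had one for 9 or 10 genes in each list, amacrine markers for 8 or 9 and Müller glia markers for 8. Rod markers had one for 9, 9 and 9 genes in the GFP lists, 7, 8 and 7 in the Ezh2 lists and 6 and 9 in the Ezh2-Y726D lists, a difference of -1.67 for Ezh2 minus GFP (two-sided exact p = 0.1). T cell markers had one for 9 or 10 genes in the GFP and Ezh2 lists and for 3 in both Ezh2-Y726D lists, and microglia markers for 4 to 8 genes against 2. The T cell genes Cd3g, Cd8a, Lat, Lck, Zap70, Cd2 and Cd28 and the microglia genes Cx3cr1, C1qa, C1qb, Csf1r, Aif1, Tmem119, Trem2 and Itgam had no peak at a gene end in either Ezh2-Y726D list. For T cell genes the difference was -6.33 for Ezh2-Y726D minus GFP and 7 for Ezh2 minus Ezh2-Y726D (two-sided exact p = 0.1 for each). The rod difference runs alongside the comparison of Ezh2 with GFP, and the others alongside those with Ezh2-Y726D. Their part in the results was not tested, and fewer cells of a type cannot be told apart from less open chromatin in them.

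To set lists of unlike depth side by side, each peak was given the percentile of its fold within its own list, where fold is the height of the summit over the local background of the same library. A percentile of 90 means that 90% of the peaks of that list had a lower or equal fold. Of the 35 regions around the members, 16 (45.7%) had a peak in all 8 lists, beside 36.6% of all regions. A further 8 of the 35 had a peak in a single list. The members ranged widely, from Adcyap1 with no region present in all lists to Gal, Vgf and Penk with 3 each.

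Sequence around the start sites came from RefSeq windows of GRCm38.p6, 250 bases before to 50 after each start, which covered 7 of the 10 members in 8 windows. The windows of 4 members are shown because they contrast open with closed starts and peptide genes with and without a cyclic AMP response element. In Npy and Cartpt the window lay within a region with a peak in all 8 lists, and in Sst and Crhbp it overlapped no peak in any list. Capitals mark the element TGACGTCA, the sequence bound by CREB, searched on both strands.
Npy, chr6:49822460-49822759, plus strand: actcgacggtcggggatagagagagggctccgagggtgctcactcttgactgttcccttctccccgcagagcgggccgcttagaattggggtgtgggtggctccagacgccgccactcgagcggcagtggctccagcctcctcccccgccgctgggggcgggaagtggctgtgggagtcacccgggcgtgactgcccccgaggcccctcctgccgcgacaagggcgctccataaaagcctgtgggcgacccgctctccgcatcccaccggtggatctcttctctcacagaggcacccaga
Cartpt, chr13:99900634-99900933, minus strand: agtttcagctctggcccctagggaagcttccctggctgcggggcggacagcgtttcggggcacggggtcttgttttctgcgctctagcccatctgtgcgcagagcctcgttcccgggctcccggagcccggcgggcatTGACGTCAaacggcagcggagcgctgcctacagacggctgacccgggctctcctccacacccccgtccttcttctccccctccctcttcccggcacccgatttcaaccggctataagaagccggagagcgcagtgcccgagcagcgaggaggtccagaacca
Sst, chr16:23890795-23891094, minus strand: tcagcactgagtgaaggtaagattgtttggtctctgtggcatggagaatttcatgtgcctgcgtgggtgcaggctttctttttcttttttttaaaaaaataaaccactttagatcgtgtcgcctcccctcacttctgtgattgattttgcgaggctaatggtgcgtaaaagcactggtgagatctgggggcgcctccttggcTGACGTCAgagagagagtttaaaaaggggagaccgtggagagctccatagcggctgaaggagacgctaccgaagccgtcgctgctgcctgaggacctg
Crhbp, chr13:95444782-95445081, minus strand: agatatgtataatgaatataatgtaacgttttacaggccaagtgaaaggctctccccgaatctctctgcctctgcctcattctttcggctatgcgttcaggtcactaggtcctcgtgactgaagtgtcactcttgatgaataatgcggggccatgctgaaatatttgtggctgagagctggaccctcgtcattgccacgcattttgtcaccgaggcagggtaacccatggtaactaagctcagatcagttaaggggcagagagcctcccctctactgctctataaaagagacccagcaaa

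The element was found in 2 of the 8 member windows, at -112 from the start of Cartpt and at -48 from that of Sst (upstream is negative), and in 588 of all 32851 RefSeq windows of this length (1.79%). The AP-1 letters TGANTCA, which TGACGTCA does not contain, were found in 0 of the 8 and in 7.81% of all. Of the windows with TGACGTCA, 81.5% lay at a peak present in all 8 lists and 14.1% at none, so the Cartpt window was of the common kind and the Sst window of the rarer kind. GC content was higher in the open member windows. Those of Npy, Cartpt, Gal and Tac1, which all met a peak in all 8 lists, had 68.0%, 66.0%, 63.3% and 54.0% GC. Those of Sst, Crhbp and the 2 of Adcyap1 had 50.3%, 48.0%, 39.0% and 45.7%. Over all windows the medians were 61.3% GC with a peak in all 8 lists and 46.7% with none, and 48.0% and 45.0% of windows fell in these classes.

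**Figure D1:**
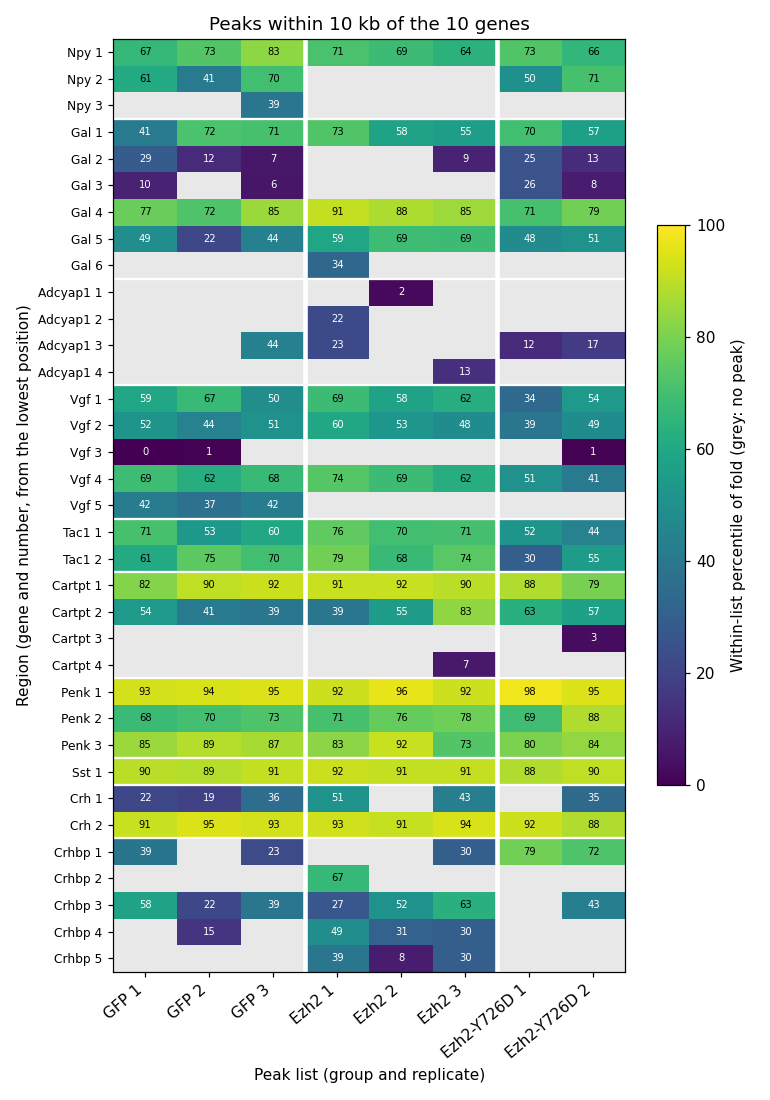
Within-list percentile of fold for the 35 regions within 10 kb of the 10 genes (rows, numbered per gene from the lowest position) in the 8 peak lists (columns, by group and replicate); grey marks no peak, and where a list had several peaks in a region the strongest is shown. Penk 1, Sst 1, Crh 2 and Cartpt 1 are high in every list, Npy 2 is missing in the 3 Ezh2 lists, and no Crhbp region has a peak in all 8 lists.

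The 10 genes together had 26, 26 and 25 peaks in the GFP lists, 26, 21 and 27 in the Ezh2 lists and 22 and 27 in the Ezh2-Y726D lists. The groups overlapped. Ezh2 differed from GFP by -1.0 peaks (24.7 ± 3.2 against 25.7 ± 0.58, SD, two-sided exact p = 1), Ezh2-Y726D from GFP by -1.17 (24.5 ± 3.5, SD, n = 2, exact p = 0.8), and Ezh2 from Ezh2-Y726D by 0.167 (exact p = 1). With so few lists an exact p cannot be smaller than 0.1. The same 3 GFP lists serve as controls in both comparisons with GFP.

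For Ezh2 against GFP, the question is whether added Ezh2 altered access to these genes. Presence gave 1 region gained (a peak in all Ezh2 lists and no GFP list) and 2 lost, of 35, beside 4.4% of all regions gained or lost. Ranks were compared with limma on normal scores, which put the ranks of each list on a bell curve with an SD of 1. Of the 16 regions with a peak in all 8 lists, 0 passed an adjusted p of 0.05, 2 had an unadjusted p under 0.05, and 4.44% of all such regions passed. The median difference of the 16 was 0.11 against 0.01 for all regions tested. The number of peaks did not overlap between the groups at 3 of the 10 genes, higher with Ezh2 at Crhbp and lower at Npy and Vgf, where the background was 10.6% of genes. The strongest peak did not overlap between the groups at 2 of 9 genes with a peak in every list, higher at Gal and Sst, where the background was 21.8%.

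For Ezh2-Y726D against GFP, 0 regions were gained and 1 was lost, with a background of 9.49%. limma called 0 of the 16 regions, 2 had an unadjusted p under 0.05, and 8.21% of all regions passed. Here 12 of the 16 differences were negative, with a median of -0.22 against -0.01 for all regions tested. Whether the 16 regions shifted as a set was not tested in any comparison. The number of peaks overlapped between the groups at all 10 genes, where 20.4% of all genes did not. The strongest peak was higher without overlap at Penk and Crhbp and lower at Vgf and Tac1, 4 of 9 beside a background of 37.2%.

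For Ezh2 against Ezh2-Y726D, 2 regions were present in Ezh2 lists only and 2 in Ezh2-Y726D lists only, with a background of 15.1%. Besides the exchanged amino acid, these groups differ in peaks at Ezh2 and in T cell and microglia markers, as given above. limma called 3 of the 16 regions higher with Ezh2 and 0 lower, or 4 at an unadjusted p under 0.05, beside 14.0% of all regions. The 3 lay at Tac1 (2 regions) and Vgf (1 region), and 12 of the 16 differences were positive, with a median of 0.24 against 0.02. The number of peaks did not overlap at 2 of 10 genes (Crhbp higher, Npy lower, background 29.0%). The strongest peak was higher without overlap at 5 of 9 genes (Gal, Vgf, Tac1, Cartpt and Sst) and lower at 1 (Crhbp), with a background of 44.1%.

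**Figure D2:**
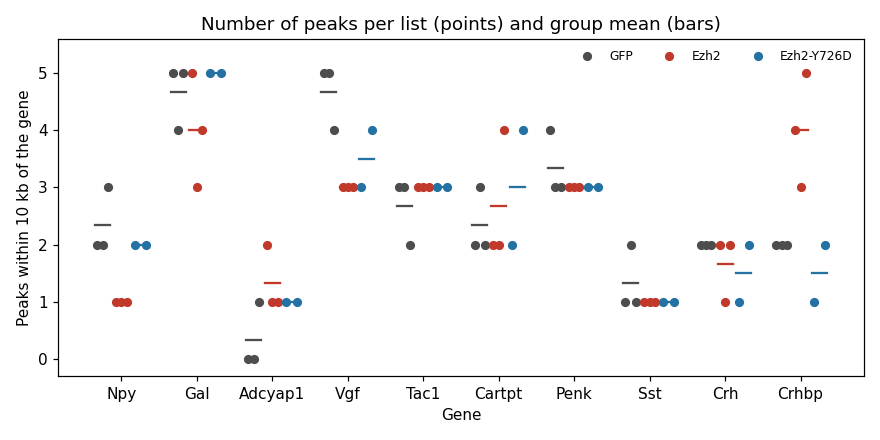
Number of peaks within 10 kb of each gene (vertical axis) in each list (points) with the group mean (horizontal bars), in grey for GFP, red for Ezh2 and blue for Ezh2-Y726D. The 3 Ezh2 lists have 1 peak at Npy where the other lists have 2 or 3, and 3 to 5 at Crhbp where the others have 1 or 2.

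Npy encodes neuropeptide Y, a peptide known to rise in injured sensory neurons, and lies on the plus strand at chr6:49822710-49829507. One of its regions was open at the start site in every list, and a second, near the end of the gene, was missing from all Ezh2 lists. The start region (Npy 1, chr6:49821954-49823259) had percentiles of 66.6, 73.1 and 83.0 with GFP, 71.4, 68.6 and 64.4 with Ezh2, and 72.8 and 66.1 with Ezh2-Y726D. The groups overlapped, with differences of normal scores from GFP of -0.27 ± 0.19 (SE) for Ezh2 and -0.25 ± 0.21 for Ezh2-Y726D (limma adjusted p = 0.483 and 0.521). The second (Npy 2, chr6:49828641-49829267) lay within the gene from 5931 bases after the start, close to its 3′ end. It had percentiles of 61.2, 41.4 and 69.5 with GFP and 50.2 and 70.9 with Ezh2-Y726D, at folds of 5.42, 4.61 and 6.12 and of 5.11 and 6.60, and no peak in the 3 Ezh2 lists. The GFP and Ezh2-Y726D lists overlapped in rank. It was not among the weak regions of the lists that had it: the mean percentile with GFP was 57.4 ± 14.5 (SD), and 8.89% of the 3183 regions lost with Ezh2 against GFP had a higher one. Against Ezh2-Y726D the mean was 60.6 ± 14.6, with 5.96% of 11652 lost regions higher. It was lost in both comparisons under each alternative peak threshold, list length and overlap that was run. Leaving out a list could not undo the call, as no Ezh2 list had a peak there. Npy 3, 3356 bases past the gene, had a peak in GFP replicate 3 alone (percentile 39.4).

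Gal encodes galanin, a peptide also known to rise after axon injury, and lies on the minus strand at chr19:3409915-3414544. Its start region and a region upstream ranked highest in the Ezh2 lists, though neither difference from GFP passed the test. The start region (Gal 4, chr19:3414057-3414873) had percentiles of 77.1, 72.3 and 85.0 with GFP, 90.7, 87.6 and 85.4 with Ezh2, and 71.1 and 78.6 with Ezh2-Y726D. All Ezh2 lists were above all others. The difference of normal scores was 0.43 ± 0.18 (SE) from GFP and 0.63 ± 0.20 from Ezh2-Y726D (limma adjusted p = 0.214 and 0.0647). The region 4688 bases upstream (Gal 5, chr19:3419232-3419769) had percentiles of 49.1, 21.7 and 43.9 with GFP, 58.6, 68.9 and 68.7 with Ezh2, and 48.3 and 51.4 with Ezh2-Y726D. Again the Ezh2 lists were above the rest, by 0.80 ± 0.20 against GFP (limma adjusted p = 0.0547) and 0.50 ± 0.23 against Ezh2-Y726D (adjusted p = 0.174). Without GFP replicate 1 the first of these passed, at 0.96 with an adjusted p of 0.0453, and over the other alternatives that gave it a value its adjusted p ran up to 0.168. It could not be tested at a −log10 q of at least 5 or when a peak had to cover 0.5 of the region. The strongest peak of Gal was 87.9 ± 2.7 with Ezh2, 78.2 ± 6.4 with GFP and 74.8 ± 5.3 with Ezh2-Y726D (SD, exact p = 0.1 for both comparisons of Ezh2). Ezh2 exceeded Ezh2-Y726D by 13.1 percentile points, and by 6.87 with ranks of −log10 p. Gal 1, 2 and 3 lie within the neighbouring gene Tesmin. Gal 1 had a peak in all lists, at percentiles from 41.2 to 73.0, and Gal 2 in 6 lists, from 6.52 to 29.2. Gal 3 had none in the Ezh2 lists and percentiles of 25.6 and 8.11 with Ezh2-Y726D and 9.64 and 6.17 in GFP replicates 1 and 3, so its loss against Ezh2-Y726D rested on weak peaks. That call was lost at a −log10 q of at least 5, with lists of equal length and when a peak had to cover 0.5 of the region. Gal 6 had a peak in Ezh2 replicate 1 alone (percentile 33.5).

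**Figure D3:**
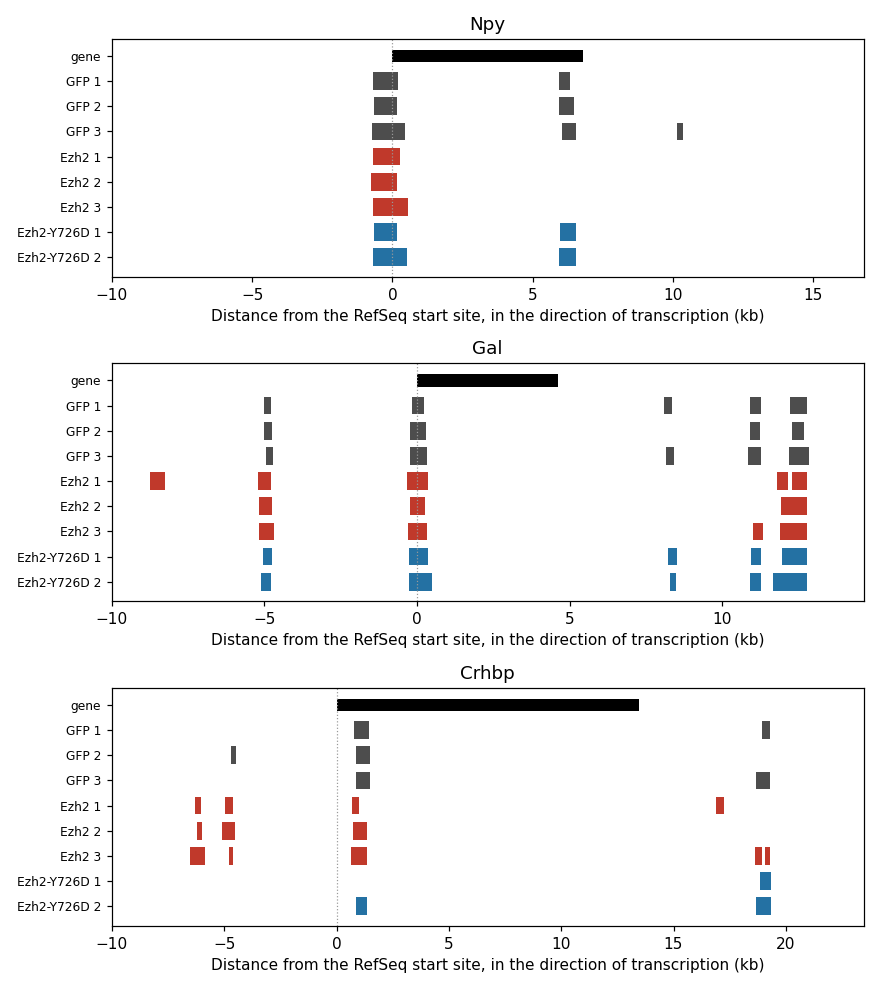
Peaks of the 8 lists (coloured bars: grey GFP, red Ezh2, blue Ezh2-Y726D) around Npy, Gal and Crhbp, by distance in kb from the RefSeq start site in the direction of transcription; the black bar is the gene and the dotted line its start. The bar near the end of Npy is absent in the 3 Ezh2 rows, the start of Gal is covered in all 8 rows, and at Crhbp the bars upstream of the start are in the Ezh2 rows and in GFP replicate 2.

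Tac1 encodes the precursor of substance P and neurokinin A and lies on the plus strand at chr6:7555061-7562978. Both its regions had a peak in all lists and both ranked higher with Ezh2 than with Ezh2-Y726D. All lists but GFP replicate 3 had 3 peaks in these 2 regions, so a region there joined separate peaks. Only the strongest was ranked, and it may not be the same peak in every list. The start region (Tac1 1, chr6:7554575-7556664) had percentiles of 70.9, 53.4 and 59.7 with GFP, 75.7, 69.9 and 70.7 with Ezh2, and 51.8 and 44.5 with Ezh2-Y726D. The Ezh2-Y726D lists were below all others, and the Ezh2 and GFP lists overlapped. Ezh2 exceeded Ezh2-Y726D by 0.77 ± 0.22 (SE, limma adjusted p = 0.0415), while the differences from GFP were 0.34 ± 0.19 for Ezh2 (adjusted p = 0.382) and -0.44 ± 0.22 for Ezh2-Y726D (adjusted p = 0.252). The second region (Tac1 2, chr6:7571081-7571672, 8103 bases past the gene) had percentiles of 61.2, 74.8 and 69.5 with GFP, 78.5, 67.9 and 74.4 with Ezh2, and 30.3 and 55.2 with Ezh2-Y726D. Here too the Ezh2-Y726D lists were lowest, and lay far from each other. Ezh2 exceeded Ezh2-Y726D by 0.97 ± 0.24 (limma adjusted p = 0.0276), and Ezh2-Y726D differed from GFP by -0.81 ± 0.24 (adjusted p = 0.0714). Without Ezh2-Y726D replicate 1 the first of these was 0.62 (adjusted p = 0.240), and without Ezh2 replicate 1 or 3 it was 0.88 and 0.98 (adjusted p = 0.0717 and 0.0543).

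Vgf encodes a secreted precursor that is induced by nerve growth factor, and lies at chr5:137025301-137033351. Of its 5 regions, 3 had a peak in all lists. Vgf 4 (chr5:137031812-137033266), within the gene at its higher-coordinate end, had percentiles of 69.0, 62.2 and 67.9 with GFP, 73.6, 68.5 and 62.5 with Ezh2, and 50.8 and 40.9 with Ezh2-Y726D. The Ezh2-Y726D lists were below all others, as at Tac1. Ezh2 exceeded Ezh2-Y726D by 0.69 ± 0.20 (SE, limma adjusted p = 0.0478), and Ezh2-Y726D differed from GFP by -0.66 ± 0.20 (adjusted p = 0.0760), whereas Ezh2 and GFP differed by 0.03 ± 0.18 (adjusted p = 0.946). Vgf 1, over the lower-coordinate end of the gene, had percentiles of 49.6 to 67.4 with GFP, 57.6 to 68.6 with Ezh2, and 34.3 and 53.7 with Ezh2-Y726D, and Vgf 2, within the gene, had 39.2 to 59.6 over the 8 lists. No difference of either passed. The region farthest out (Vgf 5, chr5:137041475-137041816, 8124 bases from the gene and inside its neighbour Ap1s1) had percentiles of 41.9, 37.3 and 42.1 in the GFP lists and no peak in any other list. It was the 1 region lost in both comparisons with GFP, which share those 3 lists. The loss held at a −log10 q of at least 5, with lists of equal length and with a cover of 0.5. Leaving out a list could not undo it. Its mean of 40.4 ± 2.7 (SD) was near the medians of all regions lost with Ezh2 (32.7) and with Ezh2-Y726D (39.2). Vgf 3 had peaks at percentiles of 0.34 to 0.54 in 3 lists. The strongest peak of Vgf was 68.1 ± 0.81 with GFP, 68.2 ± 5.6 with Ezh2 and 52.2 ± 2.1 with Ezh2-Y726D (SD, exact p = 0.1 for both comparisons of Ezh2-Y726D). These differences depended on the measure ranked. Ezh2-Y726D differed from GFP by -15.8 percentile points with ranks of fold and by -2.62 with ranks of −log10 p (exact p = 0.2). The excess of Ezh2 over Ezh2-Y726D was 16.0 points with the first ranking and 3.38 with the second.

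The calls at Tac1 and Vgf were not firm. T cell markers with a peak, 9 or 10 of 10 in the Ezh2 lists against 3 in the Ezh2-Y726D lists, moved with these differences, and their part was not tested. Without a single list, and over the other alternatives that gave a value, the difference between Ezh2 and Ezh2-Y726D kept its sign. The ranges were 0.61 to 0.92 for Tac1 1, 0.62 to 1.24 for Tac1 2 and 0.34 to 0.82 for Vgf 4. Tac1 2 could not be tested at a −log10 q of at least 5. Neither Tac1 region could be tested when a peak had to cover 0.5 of the region. The limma adjusted p ran from 0.0216 to 0.240, 0.0264 to 0.240 and 0.0386 to 0.282. Tac1 1 lost its call without GFP replicate 3, without any 1 Ezh2 list, without either Ezh2-Y726D list and with a block by the number in the peak names (adjusted p = 0.0759 in limma). Vgf 4 lost its call without any 1 GFP list, without Ezh2 replicate 1 or 2 and without either Ezh2-Y726D list. It also lost it with ranks of −log10 p, where the difference was 0.34 (limma adjusted p = 0.103). The same held with a cover of 0.5, with regions in at least 5 lists, with only the groups compared in the fit and with a block by the number in the peak names (limma adjusted p = 0.0550, 0.0526, 0.0774 and 0.0871).

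**Figure D4:**
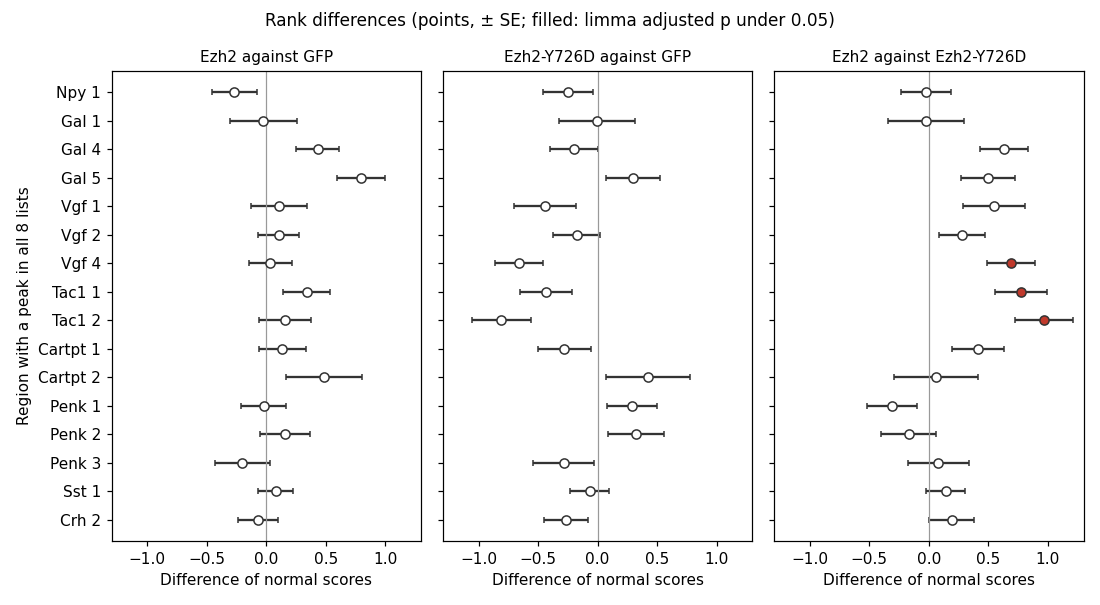
Difference of normal scores of rank (points) with its SE (bars) for the 16 regions with a peak in all 8 lists, with Ezh2 against GFP on the left, Ezh2-Y726D against GFP in the middle and Ezh2 against Ezh2-Y726D on the right; filled points have a limma adjusted p under 0.05 over all regions tested. Filled are Vgf 4, Tac1 1 and Tac1 2 in the right panel, and the farthest point in the left panel is Gal 5.

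Cartpt, Penk, Sst and Crh had high-ranking peaks in every list, and no region of theirs passed the test in any comparison. Cartpt, which encodes a peptide used as a marker of direction-selective RGCs, lies on the minus strand at chr13:99898483-99910179. Its start region (Cartpt 1, chr13:99899924-99901361), which holds the window with TGACGTCA shown above, had percentiles of 81.6, 90.2 and 92.0 with GFP, 91.5, 91.6 and 89.7 with Ezh2, and 88.2 and 79.4 with Ezh2-Y726D. The Ezh2 lists were above the Ezh2-Y726D lists, with a difference of 0.41 ± 0.22 (SE, limma adjusted p = 0.248). A region at -9224 from that start, over the far end of the annotated gene (Cartpt 2), had percentiles of 53.6, 41.4 and 39.4 with GFP, 39.2, 55.5 and 83.3 with Ezh2, and 63.3 and 57.4 with Ezh2-Y726D. The Ezh2 lists were spread over the whole range of the other groups. Cartpt 3 and 4 each had a peak below a percentile of 7 in a single list.

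Penk encodes the precursor of the enkephalins, peptides that act on opioid receptors, and lies at chr4:4133536-4138815. Its 3 regions had a peak in all lists, 1 over the higher-coordinate end of the gene (Penk 2) and 1 beyond each end. The strongest (Penk 1, chr4:4130472-4131598, 1938 bases from the gene) had percentiles of 93.1, 94.0 and 94.7 with GFP, 92.4, 96.3 and 92.5 with Ezh2, and 97.9 and 94.8 with Ezh2-Y726D. It ranked above every other peak of the 10 genes in both Ezh2-Y726D lists, in GFP replicates 1 and 3 and in Ezh2 replicate 2. In the other lists a Crh peak ranked higher. Ezh2-Y726D was above GFP without overlap, by 0.29 ± 0.21 (SE, limma adjusted p = 0.444). Penk 2 ran from 68.2 to 88.1 and Penk 3 from 73.3 to 91.6.

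Sst encodes somatostatin, an inhibitory peptide, and lies on the minus strand at chr16:23889573-23891342. Its 1 region (Sst 1, chr16:23897619-23899216) lay at -6775 from the start, and no list had a peak at the start. Sst 1 had percentiles of 89.5, 88.8 and 90.7 with GFP, 92.0, 90.8 and 90.9 with Ezh2, and 88.2 and 90.3 with Ezh2-Y726D. The Ezh2 lists were above all others, but by 0.08 ± 0.15 and 0.14 ± 0.16 (SE, limma adjusted p = 0.828 and 0.606), less than the error. Its spread was small, with an SD of 0.98, 0.68 and 1.5 percentile points in the 3 groups.

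Crh encodes corticotropin-releasing hormone, the peptide that Crhbp binds, and lies at chr3:19693401-19695396. A region inside the gene (Crh 2, chr3:19693841-19694916), which also lies inside the annotated gene Gm42189, had percentiles of 91.5, 94.8 and 93.3 with GFP, 92.7, 91.2 and 94.1 with Ezh2, and 92.3 and 88.0 with Ezh2-Y726D. The groups overlapped, with differences of -0.07 ± 0.17 and -0.27 ± 0.19 from GFP (SE, limma adjusted p = 0.869 and 0.430). Crh 1, inside the neighbouring gene Trim55, had a peak in 6 lists at percentiles from 19.2 to 51.2.

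Adcyap1 encodes PACAP, a peptide made by the RGCs that drive the pupil reflex and the daily clock, and lies on the plus strand at chr17:93198245-93206541. It was the only member that lacked a peak in some lists. Peaks numbered 0, 0 and 1 with GFP, 2, 1 and 1 with Ezh2, and 1 and 1 with Ezh2-Y726D, none at a start site. They fell in 4 regions within the gene, of which 3 had a peak in a single list. The region present most often (Adcyap1 3) had percentiles of 43.9 in GFP replicate 3, 22.5 in Ezh2 replicate 1, and 11.9 and 17.4 with Ezh2-Y726D. The first 3 regions also lie inside the annotated gene Gm32465, so which gene they belong to cannot be told apart.

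Crhbp, the only member that makes a binding protein and not a peptide, lies on the minus strand at chr13:95431376-95444831. None of its 5 regions had a peak in all 8 lists, and which ones did varied with the group. The numbers of peaks were 2, 2 and 2 with GFP, 4, 3 and 5 with Ezh2, and 1 and 2 with Ezh2-Y726D. Ezh2 exceeded GFP by 2.0 peaks and Ezh2-Y726D by 2.5 without overlap (exact p = 0.1 and 0.2). Upstream of the gene, Crhbp 5 (chr13:95450695-95451334, 5864 bases before the start) had percentiles of 39.2, 7.96 and 30.2 in the Ezh2 lists and no peak elsewhere. Crhbp 4 (chr13:95449285-95449948, 4454 bases before the start) had percentiles of 49.2, 31.3 and 30.2 with Ezh2, 15.0 in GFP replicate 2 and no peak in the other 4 lists. These were weak peaks: of the regions gained with Ezh2 against GFP, 62.1% had a higher mean percentile than Crhbp 5. Crhbp 5 kept its peak in 1 of 3 Ezh2 lists at a −log10 q of at least 5, in 2 with lists of equal length and in 1 when a peak had to cover 0.5 of the region. Crhbp 4 kept 2 of 3 under the first and last of these.

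Downstream of Crhbp the Ezh2-Y726D lists ranked highest. Crhbp 1 (chr13:95425485-95426187, 5189 bases past the gene) had percentiles of 78.6 and 72.4 with Ezh2-Y726D, 38.9 and 23.4 in GFP replicates 1 and 3, 30.2 in Ezh2 replicate 3 and no peak in the other 3 lists. As lists without a peak carry no rank, Crhbp 1 was outside the main test, which needed a peak in all 8 lists. With regions in at least 5 lists, Ezh2-Y726D exceeded GFP by 1.23 ± 0.28 (SE, limma adjusted p = 0.0645), with 2 lists in each group. Ezh2 minus Ezh2-Y726D was -1.33 ± 0.35 there, with 1 Ezh2 list. Nearest to the start, 634 bases inside the gene, Crhbp 3 had percentiles of 57.5, 21.7 and 39.4 with GFP, 27.3, 51.5 and 63.5 with Ezh2, and 42.8 in Ezh2-Y726D replicate 2, with none in replicate 1. The groups overlapped there, and the start window itself, printed above, met no peak. Crhbp 2, 3445 bases past the gene, had a peak in Ezh2 replicate 1 alone, at a percentile of 67.1. The strongest peak of Crhbp was 57.5, 21.7 and 39.4 with GFP, 67.1, 51.5 and 63.5 with Ezh2, and 78.6 and 72.4 with Ezh2-Y726D, but it lay in Crhbp 3 with GFP, in Crhbp 2 or 3 with Ezh2 and in Crhbp 1 with Ezh2-Y726D. The differences from GFP were 21.1 and 36.0 percentile points (exact p = 0.2 for both).

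Other genes of the pathway were described with the same limma fit. Of 25 other precursor genes, 23 had a peak within 10 kb, and 32 of their regions were tested. Of these, 0 were higher and 1 lower with Ezh2 relative to GFP, 0 and 1 with Ezh2-Y726D relative to GFP, and 2 and 1 for Ezh2 against Ezh2-Y726D. Those called lay at Ghrh, which encodes growth hormone-releasing hormone, and Trh, which encodes thyrotropin-releasing hormone. A region within Ghrh (chr2:157347405-157348267) had percentiles of 10.0, 16.9 and 21.2 with GFP, 1.83, 1.51 and 1.42 with Ezh2, and 7.28 and 23.9 with Ezh2-Y726D. Ezh2 minus GFP was -1.01 ± 0.19 (SE, limma adjusted p = 0.0197). A second (chr2:157319961-157320719) lay 8777 bases from Ghrh and nearer to an end of another gene, Rpn2, at 5599 bases. It had percentiles of 45.9, 50.2 and 46.1 with GFP, 58.3, 71.8 and 55.9 with Ezh2, and 3.95 and 5.90 with Ezh2-Y726D. It was the largest difference among these precursors, 1.86 ± 0.22 for Ezh2 minus Ezh2-Y726D (limma adjusted p = 0.00123). A region 316 bases from Trh had percentiles of 92.4, 94.2 and 92.7 with Ezh2 and 68.1 and 87.5 with Ezh2-Y726D (limma adjusted p = 0.0484).

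Of the 64 regions tested at 22 receptor genes, 1 was higher and 0 lower with Ezh2 relative to GFP, 2 and 0 with Ezh2-Y726D relative to GFP, and 2 and 4 for Ezh2 against Ezh2-Y726D. Crhr1, the receptor of the Crh peptide, was among them. A region 5347 bases from it had percentiles of 33.0, 35.3 and 55.4 with GFP, 27.3, 12.9 and 11.6 with Ezh2, and 69.7 and 68.1 with Ezh2-Y726D, a difference of -1.53 ± 0.23 for Ezh2 minus Ezh2-Y726D (limma adjusted p = 0.00332). Here, as at Crhbp 1, the Ezh2-Y726D lists were above all others. At Sstr5, a receptor of somatostatin, a region 217 bases from the gene had 34.8, 51.7 and 42.5 with GFP, 72.7, 79.6 and 76.0 with Ezh2, and 72.8 and 65.9 with Ezh2-Y726D, and was higher with Ezh2 than with GFP by 1.05 ± 0.19 (limma adjusted p = 0.0191). Oprm1, the mu opioid receptor on which enkephalins act, had 1 region higher with Ezh2 than with Ezh2-Y726D (1.14 ± 0.18) and another lower (-1.43 ± 0.30, limma adjusted p = 0.00366 and 0.0136). A region near Vipr1, a receptor of PACAP, had 91.7 and 91.1 with Ezh2-Y726D, above GFP by 1.38 ± 0.23 (limma adjusted p = 0.00864), and lies at an end of the neighbouring gene Sec22c.

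Of the 86 regions tested at 14 genes for the cutting, amidation and storage of peptides, 2 were higher and 1 lower with Ezh2 relative to GFP, 4 and 2 with Ezh2-Y726D relative to GFP, and 6 and 2 for Ezh2 against Ezh2-Y726D. At Pam, the enzyme that amidates peptide ends, a region within the gene (chr1:98023872-98024412) had percentiles of 33.0, 35.3 and 39.4 with GFP, 78.5, 77.0 and 64.4 with Ezh2, and 85.3 and 79.6 with Ezh2-Y726D. It was higher than with GFP with both forms, by 1.14 ± 0.20 and 1.5 ± 0.22 (limma adjusted p = 0.0158 and 0.00560). Cpe, a carboxypeptidase that trims cut peptides, had 1 region higher and 1 lower with Ezh2 than with GFP (1.05 ± 0.20 and -0.79 ± 0.18, limma adjusted p = 0.0228 and 0.0413). Cadps2, a factor in the release of dense core vesicles, had 1 region called in each direction for Ezh2-Y726D against GFP (1.42 ± 0.32 and -1.03 ± 0.22, limma adjusted p = 0.0271 and 0.0228), and Scg5, which assists a convertase, had 1 higher (1.15 ± 0.26, adjusted p = 0.0261). Called regions made up 3.12%, 1.56% and 3.49% of those tested at precursors, receptors and processing genes with Ezh2 relative to GFP, 3.12%, 3.12% and 6.98% with Ezh2-Y726D relative to GFP, and 9.38%, 9.38% and 9.3% for Ezh2 against Ezh2-Y726D. All of these shares lay below the backgrounds of 4.44%, 8.21% and 14.0%.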

How the data were processed

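ATAC-seq peaks were taken from 8 deposited lists (3 GFP, 3 Ezh2 and 2 Ezh2-Y726D samples, grouped by title). The authors' lists were called sample by sample, without pooling. Per the labels, cutadapt, Bowtie2, SAMtools, Picard, MACS2 and deepTools were used with the build GRCm38, and their versions and settings are not given in the sources used here. Tags in the peak names point to reads filtered on mapping quality, sorted and freed of duplicates. The deposited fold is a ratio, of summit height to background near the peak in that library. Each peak also has a deposited −log10 p-value and a −log10 q-value from the caller, and the lowest −log10 q was 1.31 to 1.38. Neither the deposited score, which rescales −log10 q, nor the summit offset gave a result. Lists called in this way hold no regions below the caller's threshold, so a missing peak is not a measured absence, and a region can pass in 1 list and miss in another through depth alone.

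Peaks sharing at least 1 bp were merged into regions, and a region within 10 kb of a RefSeq gene (GRCm38.p6) was assigned to it. The table used gives no strand or start sites. Those came from the RefSeq promoter windows, which hold 7 of the 10 members. Percentiles are ranks of fold within a list over its length. A region was gained when all lists of the first group and none of the other had a peak, and lost in the reverse case. For the 69493 regions with a peak in all 8 lists, ranks became normal scores and groups were compared with limma 3.58.1 (R 4.3.3; all 8 samples in 1 fit, Benjamini-Hochberg over all of these regions, threshold 0.05), which was tested on simulated data. Numbers of peaks per gene were set beside 18690 protein-coding genes with a peak in the window and strongest percentiles beside 17371 with a peak there in every list, and single values had two-sided exact permutation tests over all assignments of the samples, which cannot go below 0.1.

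The members and lists were chosen with earlier results of these data known. All members are described in every comparison. Of the other precursors, receptors and processing genes, at most the 3 called regions with the largest difference per comparison and direction could be named, and the report gives the main ones among them. Ezh2 was named as the check of the labels. Where nothing says that samples came from separate animals, p-values measure the spread between samples only. The replicate numbers were checked for pairing by the correlation of same-numbered deviations, which ran from -0.0151 to 0.0478, so no pairing was used. The alternatives were a −log10 q of at least 5, lists of equal length, a peak covering 0.5 of a region, windows of 3 and 50 kb, ranks of −log10 p, regions in at least 5 lists, a replicate block, 2 groups per fit, and leaving out each sample.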

Additional observations from a re-analysis of the deposited data

Results flagged for a closer look

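At Tac1 and Vgf, 3 regions are given here because the effects of Ezh2 and of Ezh2-Y726D against the same GFP lists had opposite signs and the difference between them passed the limma test. Tac1 2, past the end of Tac1, differed by 0.97 (Ezh2 0.16 above GFP, Ezh2-Y726D -0.81 from it, limma adjusted p = 0.0276). Tac1 1, at the start of Tac1, differed by 0.77 (0.34 and -0.44 from GFP, adjusted p = 0.0415). Vgf 4, within Vgf, differed by 0.69 (0.03 and -0.66 from GFP, adjusted p = 0.0478), but there the Ezh2 effect was 0.03 ± 0.18 (SE, adjusted p = 0.946 in limma), so that its sign carries no weight. All values are differences of normal scores of rank, and no single effect against GFP passed the test. These 3 of the 16 member regions tested stand beside 14.0% of all regions called in Ezh2 against Ezh2-Y726D, and the share of all regions with opposite signs was not computed. In these comparisons T cell markers with a peak at a gene end numbered 9 or 10 of 10 in the GFP and Ezh2 lists and 3 of 10 in the Ezh2-Y726D lists, and their part in the differences was not tested.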

How the results depend on the processing

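Depth is unknown, 2 or 3 lists per group limit every test, and a region without a peak carries no rank. The loss of Npy 2 and of Vgf 5 held at a −log10 q of at least 5, with lists of equal length and with cover of 0.5. Leaving out a list or changing the window could not undo it. Other counts moved, and where a window changed they did so because other regions entered or left. With 50 kb around each gene, limma called 1 of 40 tested regions in Ezh2 against GFP, 2 of 40 in Ezh2-Y726D against GFP and 5 of 40 in Ezh2 against Ezh2-Y726D. The backgrounds were 4.44%, 8.21% and 14.0%. Of 92 regions, 6, 12 and 14 were gained or lost, beside 4.4%, 9.49% and 15.1% of all regions. With 3 kb, 1, 0 and 1 of 20 were. When a peak had to cover 0.5 of a region, 10 member regions could be tested, neither Tac1 region among them. limma called 0 of these in Ezh2 against Ezh2-Y726D, and 4320 over all regions at this setting. Of 35 regions, 2 and 1 were gained or lost in the comparisons of Ezh2-Y726D with GFP and with Ezh2. Leaving out 1 list, limma called 0 to 1 in Ezh2 against GFP and 0 to 2 in Ezh2 against Ezh2-Y726D. Over all regions its calls moved too. They went from 3083 to between 938 and 2587 in the first and from 9699 to between 3835 and 9368 in the second. Without 1 list, 3 to 5 regions were gained or lost in Ezh2 against GFP and 1 to 3 in Ezh2-Y726D against GFP. No share of all regions gained or lost is given for cover of 0.5 or left-out lists, and fewer lists make such calls easier.

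The number of peaks over the 10 genes turned its sign in Ezh2 against GFP with 50 kb (5.67) and without Ezh2 replicate 2 (0.833, range over left-out lists -2.17 to 0.833), in Ezh2-Y726D against GFP at a −log10 q of at least 5 (0.167) and without Ezh2-Y726D replicate 1 (1.33, range -3.67 to 1.33), and in Ezh2 against Ezh2-Y726D at that threshold (-1.5), with lists of equal length (-0.5), with cover of 0.5 (-0.5), with 3 kb (-0.667) and without Ezh2 replicate 1 or 3 or Ezh2-Y726D replicate 1 (-0.5, -1.0 and -2.33, range -2.33 to 2.67). Genes whose strongest peak did not overlap in Ezh2 against GFP numbered 0 at a −log10 q of at least 5, 1 with lists of equal length, 1 with 3 kb and 2 to 4 without 1 list (4 without GFP replicate 1 or Ezh2 replicate 2). They numbered 4 to 7 without 1 list in Ezh2-Y726D against GFP (7 without GFP replicate 1) and 3 there at a −log10 q of at least 5, with cover of 0.5 and with 3 kb, and 3 with 50 kb in Ezh2 against Ezh2-Y726D. No share of all genes is given for these settings, and groups of fewer lists fail to overlap more easily. With 50 kb the strongest percentile turned its sign for Gal (-0.675 against GFP and -0.868 against Ezh2-Y726D, for Ezh2), Vgf (2.89 for Ezh2-Y726D against GFP and -1.55 for Ezh2 against it), Crhbp (-2.17 and 4.50, likewise) and Cartpt (-3.33), and for Cartpt also with ranks of −log10 p (-0.588). Where the groups had overlapped, signs also turned with 50 kb for Npy (8.36 and 7.18 from GFP for Ezh2 and Ezh2-Y726D, and 1.18 between them) and, for Ezh2-Y726D against GFP, for Cartpt (5.65) and Gal (0.193), and among the turns under other settings was Gal with cover of 0.5 (12.6). Marker counts turned by less than 1 gene: RGC genes by -0.167 (Ezh2-Y726D against GFP, equal length), 0.5 and 0.833 (Ezh2 against Ezh2-Y726D, at the q threshold and at equal length), and amacrine genes by 0.333 and 0.167 with 3 kb. For these turned signs the cause was not tested.

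The correlations of same-numbered samples gave no sign of pairing, which does not show that there was none. A replicate block by the title number left 2 of the 3 calls in Ezh2 against Ezh2-Y726D, with Tac1 2 at an adjusted p of 0.0527. A block by the number in the peak names, which differs from the title in Ezh2-Y726D, gave 0 calls.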
